A study of Mus musculus with 20 samples.

Results

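The 37 genes described here lie on either side of Dio2 on mouse chromosome 12, in the stretch from Ttll5 to Rps6ka5. Dio2 encodes type 2 deiodinase, the enzyme that activates thyroid hormone inside cells, and it was the gene disrupted in the knockout mice. The genes were listed by their place near Dio2, within about 15 Mb, and the rule uses no measured value. Probes were assigned by the gene symbol of the platform annotation, and 35 of the 37 genes had at least 1 probe, 90 probes in all. A probe was tested when its detection P-value, which sets its signal against that array's negative controls, was below 0.05 on at least 3 of the 20 arrays. This left 51 probes of 30 genes, out of 23148 tested probes and 12310 genes with a tested probe in the series. By the RefSeq gene order the stretch holds 73 protein-coding genes, 46 before Dio2 and 26 after it, and the 37 genes are therefore a part of it. In what follows, genes are taken in their order along the chromosome, and the position of a gene is its count of protein-coding genes from Dio2.

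Articular cartilage from the knee of male Dio2-/- and wild-type mice on a C57Bl/6 background, 4 to 6 months old, was compared with (Run) and without (NoRun) forced treadmill-running of 3 weeks, for 1 hour a day on 5 days a week at 11 m/min and an incline of 5 degrees. RNA was measured on Illumina MouseWG-6 v2 BeadChips with 11 wild-type arrays (3 NoRun and 8 Run) and 9 Dio2-/- arrays (3 NoRun and 6 Run), and each array holds a pool of 2 mice. The Dio2-/- mice were in generation 6 of backcrossing, and all mice were described as littermates caged together, although the methods also name a supplier for the wild-type mice. Dio2 was disrupted in the germline, so the knockout is not restricted to cartilage.

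When a knockout made in one mouse strain is crossed into another, the chromosome around the disrupted gene comes along with it, and each generation of backcrossing shortens that passenger segment only by recombination. Genes in such a segment can differ between knockout and wild-type mice through their own strain variants. A strain variant under an array probe can also weaken hybridization without any change in the RNA. For these reasons the flanking genes are a standard place to look in a knockout comparison. The strain in which the Dio2 allele was made, the length of donor chromosome still present in these mice and the probe sequences were not used here, so which of these routes applies to a given probe was not tested.

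None of the 51 probes passed an adjusted P-value of 0.05 for genotype, with limma and Benjamini-Hochberg adjustment over all tested probes, where 1 of the 23148 did (0.00432%). At an unadjusted P-value below 0.05 there were 4 of the 51 probes (7.84%), against 14.3% of all tested probes. Of the 4, 1 was higher in Dio2-/- (7.19% of all tested probes were) and 3 were lower (7.11% of all). No flanking probe had all wild-type arrays on one side of all Dio2-/- arrays, which held for 0.013% of all tested probes. The estimated differences ran from -0.40 to 0.36 on the log2 scale, with 24 probes higher and 27 lower in Dio2-/- and a median of -0.01, beside a median of -0.00 over all tested probes. The median size of the difference was 0.11, beside 0.13 over all tested probes. For 44 of the 51 probes (86.3%) the whole 95% interval lay inside a 1.5-fold difference in either direction, compared with 79.9% of all tested probes. The share of flanking probes past the unadjusted threshold was below that of the array as a whole in this fit, but the order turned with chip as a fixed term (5 of 51, 9.8%, against 8.01%) and with the muscle and neutrophil marker means in the model (7 of 51, 13.7%, against 11.3%).

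**Figure D1:**
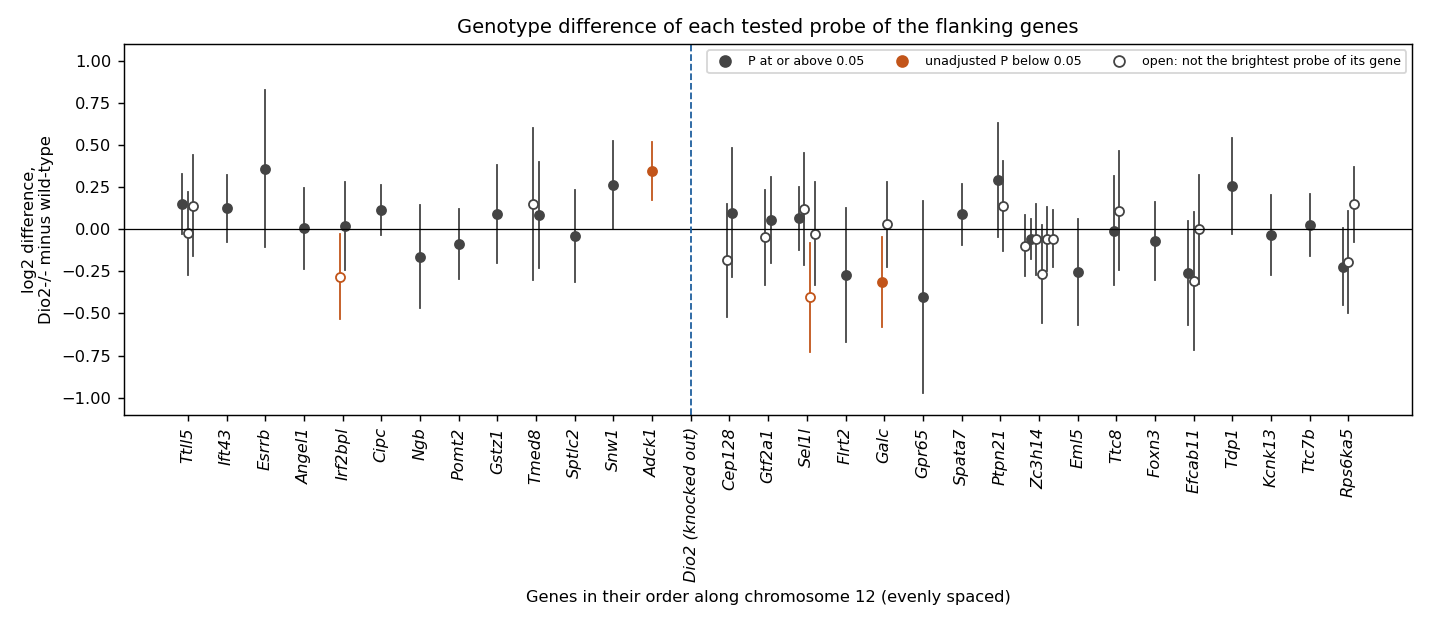
Difference between Dio2-/- and wild-type cartilage for each tested probe of the flanking genes (log2, points, with 95% intervals as lines), in gene order along chromosome 12 with Dio2 at the dashed line. Differences run from -0.40 to 0.36, and 4 of the 51 probes (orange) had an unadjusted P-value below 0.05.

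Some features of the pools bear on how the genotype values below can be read. All 16 skeletal muscle markers checked were higher in Dio2-/- (median log2 difference 0.49), with a mean log2 level of 13.09 to 14.29 in the wild-type pools and 13.42 to 14.64 in the Dio2-/- pools, the highest in Dio2-/- Run 24. All 15 tested markers of neutrophils and granulocytes, of 16 listed, were lower in Dio2-/- (median -0.41). Their mean level was 14.44 to 14.73 in the wild-type pools and 12.45 to 14.61 in the Dio2-/- pools. It was 12.45 in Dio2-/- NoRun 16 and 13.54 in Dio2-/- Run 24, while every other Dio2-/- pool lay between 14.39 and 14.61. Of the cartilage markers, 13 of 15 were tested, 9 of them were detected on every array, and 10 were higher and 3 lower (median 0.21). The arrays came on 6 chips, only 2 of which held both genotypes. One of these held 3 wild-type NoRun pools and 1 Dio2-/- Run pool, which mixes genotype with running, so the only comparison of genotypes within a chip and a running group is that of 1 wild-type Run pool (23) with 2 Dio2-/- Run pools (24 and 25), and a fit with chip as a fixed term gives that same value. All wild-type NoRun pools were on one chip and all Dio2-/- NoRun pools on another, so that chip and genotype cannot be told apart among the non-running mice. Median intensity per array lay between 162.3 and 223, and 18469 to 21386 probes were detected. Fewer cells of a type and less RNA per cell cannot be told apart in such pools.

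Of the genes between Ttll5 and Dio2, the one nearest to Dio2 with a detected probe was Adck1, at position -2, and it gave the largest statistic of the set. Adck1 encodes a mitochondrial protein of the ADCK family of atypical kinases. Its only probe (ILMN_2656440), detected on all 20 arrays, read 8.68, 8.77 and 8.40 in the wild-type NoRun pools 12, 14 and 15, and 8.85, 8.71 and 8.92 in the Dio2-/- NoRun pools 16, 17 and 19. In Run it ranged from 8.60 to 8.98 (median 8.87) in wild-type and from 8.94 to 9.41 (median 9.30) in Dio2-/-. In Dio2-/- Run, 5 of the 6 pools lay above every wild-type pool, and pool 25 lay just below the highest wild-type Run pool, so that the genotypes overlapped. The mean was 8.77 ± 0.17 (SD, n = 11) in wild-type and 9.10 ± 0.26 (n = 9) in Dio2-/-, a difference of 0.34 (SE 0.08, 95% interval 0.17 to 0.52) or 1.27-fold, with an unadjusted P-value of 0.000437 and an adjusted P-value of 0.158 in limma. Leaving out each pool in turn gave 0.32 to 0.38, with an unadjusted P-value below 0.05 in all 20 fits. With the muscle and neutrophil means in the model it was 0.27 (unadjusted P-value 0.00462 in limma), and on the chip that held Run pools of both genotypes, where 1 wild-type pool stands against 2, it was 0.26, with no call (unadjusted P-value 0.259 in limma with chip as a fixed term).

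The RefSeq promoter windows of Dio2 and of the 2 listed starts of Adck1, each 250 bases before to 50 bases after the start in build GRCm38.p6, are shown because they are the disrupted gene and the neighbour with the largest statistic. Capitals mark an E-box (CACGTG) in one Adck1 window, and a cyclic AMP response element (TGACGTCA) and a TATA box (TATAAA) in the Dio2 window, all searched on both strands.
Dio2 (chr12:90738989-90739288, - strand): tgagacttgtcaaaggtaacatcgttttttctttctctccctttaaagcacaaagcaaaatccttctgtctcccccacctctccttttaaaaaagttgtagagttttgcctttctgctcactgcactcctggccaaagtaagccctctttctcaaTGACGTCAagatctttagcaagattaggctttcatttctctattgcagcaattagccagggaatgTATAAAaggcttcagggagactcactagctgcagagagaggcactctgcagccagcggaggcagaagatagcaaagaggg
Adck1 (chr12:88360264-88360563, + strand): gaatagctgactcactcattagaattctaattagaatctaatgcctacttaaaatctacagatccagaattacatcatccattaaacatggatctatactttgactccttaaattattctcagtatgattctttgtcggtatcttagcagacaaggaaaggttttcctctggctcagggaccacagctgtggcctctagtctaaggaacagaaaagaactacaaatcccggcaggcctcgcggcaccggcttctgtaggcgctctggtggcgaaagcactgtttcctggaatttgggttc
Adck1 (chr12:88360532-88360831, + strand): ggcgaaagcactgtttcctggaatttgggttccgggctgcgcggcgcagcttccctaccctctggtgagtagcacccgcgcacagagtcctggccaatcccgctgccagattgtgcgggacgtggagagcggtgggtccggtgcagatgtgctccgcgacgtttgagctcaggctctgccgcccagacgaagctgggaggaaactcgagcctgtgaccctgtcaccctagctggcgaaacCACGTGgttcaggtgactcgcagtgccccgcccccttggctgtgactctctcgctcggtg
The E-box letters stand in 5 of the 44 windows of the flanking genes (11.4%) and in 7.2% of all 32851 windows, the response element in 2 (4.5%) and 1.8%, and the TATA box in 2 (4.5%) and 13.6%. The receptor half-site AGGTCA, which thyroid hormone receptors bind in pairs, was in neither gene's windows, in 4 of the 44 (9.1%) and in 16.3% of all windows. These are matches of letters in a fixed window, and windows were found for 33 of the 37 genes.

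The other tested probes of the listed genes before Dio2 belong to 12 genes. Ttll5, which adds glutamate chains to tubulin, had 3 tested probes with differences of 0.15 (SE 0.09), -0.03 (SE 0.12) and 0.14 (SE 0.14). Ift43, a subunit of the intraflagellar transport complex of cilia, had means of 9.43 ± 0.18 in wild-type and 9.55 ± 0.24 in Dio2-/-, a difference of 0.12 (SE 0.10). Esrrb, an orphan nuclear receptor, had the largest positive difference of all the flanking probes at 0.36, but its SE was 0.22 and its adjusted P-value 0.457 in limma. Angel1, related to the CCR4 family of RNA-processing nucleases, was detected on 13 arrays and differed by 0.00 (SE 0.12).

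Irf2bpl, a regulator of transcription from the family that binds IRF2, was the other listed gene on this side with an unadjusted P-value below 0.05, on 1 of its 2 tested probes. The dimmer probe (ILMN_2731379) read 6.21, 6.24 and 6.05 in the wild-type NoRun pools and 6.11, 6.43 and 6.23 in the Dio2-/- NoRun pools, while in Run it ranged from 6.17 to 6.99 (median 6.34) in wild-type and from 5.72 to 6.50 (median 5.95) in Dio2-/-. The non-running pools overlapped throughout, and among the running pools 5 of the 6 Dio2-/- values lay below the lowest wild-type value. The difference was -0.28 (SE 0.12, unadjusted P-value 0.0308, adjusted 0.311 in limma). The brighter probe (ILMN_3109491) had means of 10.23 ± 0.27 and 10.27 ± 0.41 and a difference of 0.02 (SE 0.13), so the gene's 2 probes gave opposite signs. On the chip with Run pools of both genotypes the dimmer probe differed by -0.65. With the muscle and neutrophil means in the model it was -0.15 (unadjusted P-value 0.243 in limma), and with array position as a term -0.20 (0.187). With no background correction it was -0.10 (unadjusted P-value 0.0555 in limma), and in the deposited log2 table -0.06 (0.0520). The unadjusted call was lost with the marker means, with array position, with no background correction and in the deposited table. It was not lost with chip as a fixed term, where 1 wild-type pool stands against 2 on that chip. Without 1 of 7 pools in turn (Dio2-/- Run 24, 32, 34 or 35, or wild-type Run 23, 29 or 31) the dimmer probe lost its unadjusted call, with values of -0.22 to -0.34 over all 20 fits.

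Further along, Cipc, a repressor that acts on the clock protein CLOCK, had means of 9.16 ± 0.14 and 9.27 ± 0.11 (difference 0.11, SE 0.07). Ngb, which encodes neuroglobin, was detected on only 5 arrays (-0.16, SE 0.15). Pomt2, an O-mannosyltransferase of the endoplasmic reticulum, differed by -0.09 (SE 0.10), and Gstz1, an enzyme of tyrosine breakdown, by 0.09 (SE 0.14) with a mean of 11.63 ± 0.25 in wild-type. Tmed8, of a family linked to vesicle traffic, gave 0.09 (SE 0.15) and 0.15 (SE 0.22) on its 2 probes. Sptlc2, a subunit of the enzyme that starts sphingolipid synthesis, was detected on 13 arrays and differed by -0.04 (SE 0.13). Snw1, a splicing factor and coregulator of nuclear receptors, differed by 0.26 (SE 0.13) and fell just short of the unadjusted threshold (unadjusted P-value 0.0504 and adjusted P-value 0.350 in limma).

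Directly after Dio2 comes Cep128, a centriole protein, whose 2 tested probes gave 0.10 (SE 0.18) and -0.18 (SE 0.16). Gtf2a1, a subunit of the general transcription factor TFIIA, gave 0.05 (SE 0.12) and -0.05 (SE 0.13). Neither of these nearest genes on the far side had a probe near the size of Adck1's statistic.

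Sel1l, at position 5, encodes the adaptor of the HRD1 ubiquitin ligase that clears misfolded proteins from the endoplasmic reticulum, and 1 of its 4 tested probes had the most negative difference of the set. That probe (ILMN_3060512) read 6.10, 6.00 and 6.43 in wild-type NoRun and 5.21, 5.96 and 6.09 in Dio2-/- NoRun. In Run it ranged from 5.77 to 6.79 (median 6.39) in wild-type and from 5.48 to 6.43 (median 5.81) in Dio2-/-. The genotypes overlapped in Run and in NoRun, and the probe was detected in all 11 wild-type pools and in 6 of the 9 Dio2-/- pools. The difference was -0.40 (SE 0.15, unadjusted P-value 0.0162, adjusted 0.269 in limma), and it was -0.19 with the muscle and neutrophil means in the model (unadjusted P-value 0.237 in limma). On the chip with Run pools of both genotypes it was 0.29, the opposite direction, with 1 wild-type pool against 2. The brightest Sel1l probe (ILMN_1244431), at 10.01 ± 0.19 in wild-type and 10.08 ± 0.17 in Dio2-/-, differed by 0.07 (SE 0.09, 95% interval -0.12 to 0.25). The remaining probes gave 0.12 (SE 0.16) and -0.03 (SE 0.15), and the spread of 0.52 between the Sel1l probes was the widest of any flanking gene.

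Flrt2, an adhesion protein of the cell surface, differed by -0.27 (SE 0.19) over all arrays. Galc, at position 8, encodes the lysosomal enzyme that breaks down galactosylceramide. Its brighter probe (ILMN_1247261) read 7.75, 7.67 and 7.86 in wild-type NoRun and 6.69, 7.27 and 7.19 in Dio2-/- NoRun, and ranged from 7.32 to 7.78 (median 7.57) in wild-type Run and from 6.67 to 7.71 (median 7.51) in Dio2-/- Run. The non-running pools of the genotypes did not overlap, whereas the running pools did apart from Dio2-/- Run 24. The difference was -0.32 (SE 0.13, unadjusted P-value 0.0230, adjusted 0.292 in limma). The lowest values belonged to Dio2-/- NoRun 16 and Dio2-/- Run 24. These pools had the lowest neutrophil means (12.45 and 13.54) and the highest muscle means (14.49 and 14.64) of all pools. Without both, the Galc difference was -0.14 (unadjusted P-value 0.137 in limma). Leaving out either one alone also ended the unadjusted call, at -0.24 without pool 16 and -0.23 without pool 24. With the marker means in the model it was -0.10 (unadjusted P-value 0.347 in limma), and on the chip with Run pools of both genotypes -0.62, where pool 24 is 1 of the 2 Dio2-/- pools. The other Galc probe (ILMN_1252690) differed by 0.03 (SE 0.12).

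**Figure D2:**
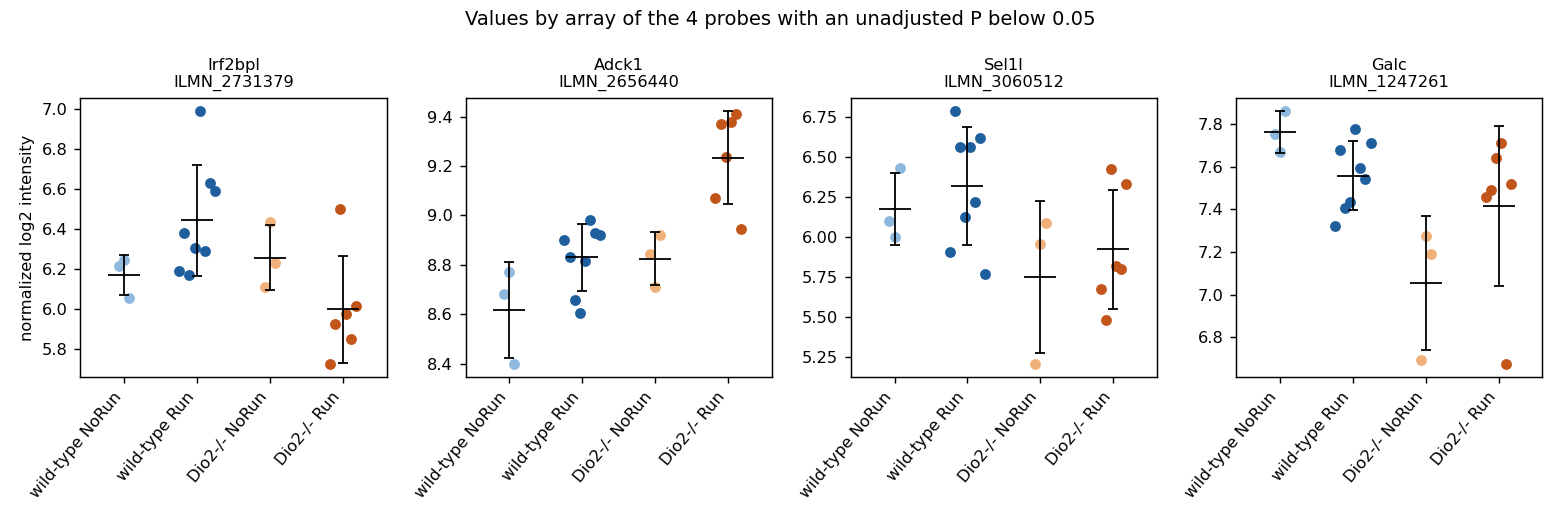
Normalized log2 intensity in each pool of the 4 probes with an unadjusted P-value below 0.05 for genotype, by group, with the mean and SD as a bar. Adck1 is highest in Dio2-/- Run (8.94 to 9.41), and the low Galc values of 6.69 and 6.67 belong to 1 Dio2-/- NoRun and 1 Dio2-/- Run pool.

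Gpr65, a proton-sensing receptor of white blood cells, had the widest interval of the set (-0.40, SE 0.27, adjusted P-value 0.497 in limma). The neutrophil mean was lowest in Dio2-/- NoRun 16, followed by Dio2-/- Run 24. Gpr65 differed by -0.21 without Dio2-/- NoRun 16, and by -0.55 without Dio2-/- NoRun 17 (unadjusted P-value 0.0428 in limma). Spata7, a ciliary protein of photoreceptors, was detected on 4 arrays (0.09, SE 0.09). Ptpn21, a cytoplasmic tyrosine phosphatase, gave 0.29 (SE 0.16) on its brighter probe, at 9.38 ± 0.32 and 9.70 ± 0.56, and 0.14 (SE 0.13) on the other, which was detected on 4 arrays. Zc3h14, which binds poly(A) tails, had 6 tested probes, and all 6 were lower in Dio2-/-, by between -0.06 and -0.26. The brightest Zc3h14 probe, at 11.66 ± 0.09 and 11.59 ± 0.09, gave the narrowest bound in the set (-0.06, SE 0.06, 95% interval -0.18 to 0.06), and probes of 1 gene share its RNA and are not independent.

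Eml5, a microtubule-associated protein, was detected on 8 arrays (-0.25, SE 0.15). Ttc8, a subunit of the BBSome that carries cargo to cilia, gave -0.01 (SE 0.16) and 0.11 (SE 0.17). Foxn3, a forkhead transcription repressor, differed by -0.07 (SE 0.11). Efcab11, an EF-hand protein, gave -0.26 (SE 0.15), -0.31 (SE 0.20) and -0.00 (SE 0.15), and the first values were -0.13 and -0.15 without Dio2-/- NoRun 16. Tdp1, which repairs topoisomerase-DNA adducts, differed by 0.26 (SE 0.14), and Kcnk13, a potassium channel, by -0.03 (SE 0.11). Ttc7b, a scaffold of the phosphatidylinositol 4-kinase complex at the plasma membrane, was steady at 11.38 ± 0.16 and 11.40 ± 0.19 (0.02, SE 0.09). Rps6ka5, the last gene, encodes the kinase MSK1, and its brightest probe differed by -0.22 (SE 0.11, unadjusted P-value 0.0555 in limma) while the others gave -0.19 (SE 0.15) and 0.15 (SE 0.11).

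Of the 12 genes with several tested probes, 8 had probes of both signs, among them Sel1l, Galc and Irf2bpl, and the 4 with a single sign were Tmed8, Ptpn21, Zc3h14 and Efcab11. The remaining 18 genes, Adck1 included, had 1 tested probe each, so that no second probe of these arrays speaks to Adck1. Zdhhc22, Tmem63c, Nrxn3, Tshr and Ston2 had probes that were not detected on any array and gave no value. These include Nrxn3, the neurexin gene between Adck1 and Dio2, and Tshr, the thyrotropin receptor. Vash1 and Alkbh1 had no probe under their symbols.

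Along the chromosome, 2 of the 17 tested probes of the listed genes before Dio2 had an unadjusted P-value below 0.05 (median difference 0.09), as did 2 of the 34 after it (median -0.05). Within 10 genes of Dio2 by gene count there were 3 of 13, and beyond that count 1 of 38. This is a description, since the count was chosen with the values known. Gene count is not distance in bases. Irf2bpl, beyond 10 genes, has a promoter window from base 86884765, and Galc, within 10 genes, one from base 98259410. The Dio2 window lies at 90738989, so Irf2bpl is the nearer of the 2 in bases. Elsewhere on chromosome 12, 70 of 587 tested probes (11.9%) passed the same threshold, and on the other chromosomes 14.9% did. The other 36 protein-coding genes of the stretch, Dio2 among them, contributed 10 tested probes of 8 genes. Of those, Tgfb3, a growth factor of the transforming growth factor beta family next to Ttll5, differed by 0.37 (SE 0.16, unadjusted P-value 0.0304, adjusted 0.311 in limma), and by 0.30 without Dio2-/- NoRun 16 (unadjusted P-value 0.0662 in limma). A probe of Dio2 itself (ILMN_2766037) was detected on 2 wild-type and 7 Dio2-/- arrays, with values of 4.95 to 5.73 and 4.95 to 6.67. It passed the detection filter only through the Dio2-/- arrays, and most wild-type arrays were not above background. No size is therefore given for its difference, although the fits counted it. The other Dio2 probe was detected on no array, and the part of the transcript that either probe reads relative to the disruption was not tested.

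**Figure D3:**
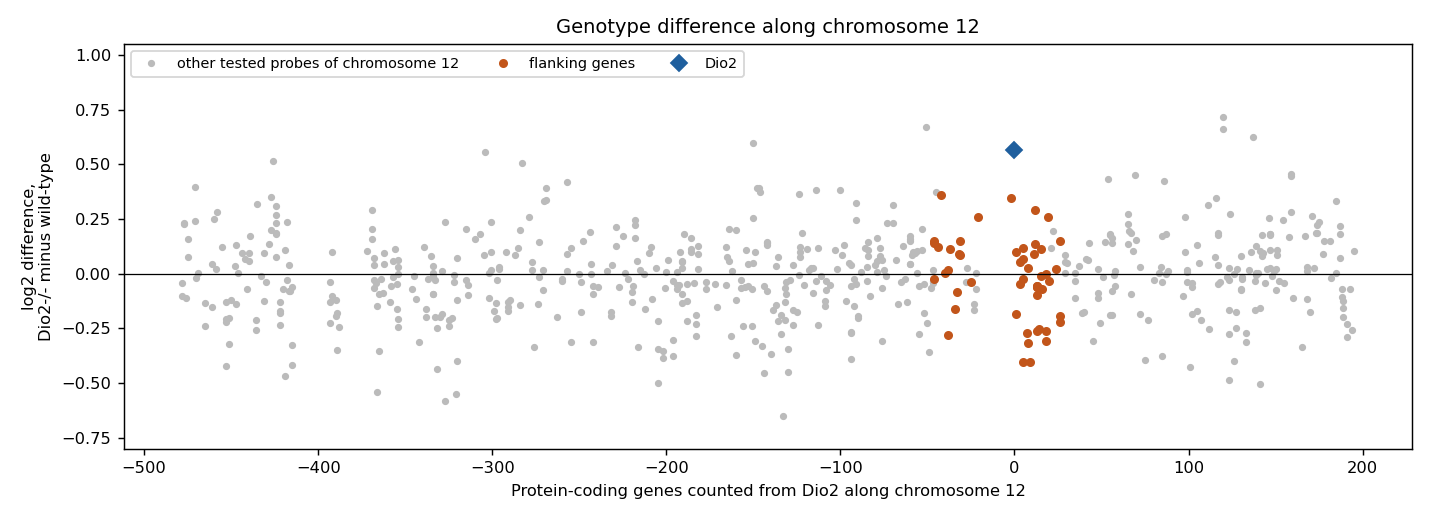
Difference between Dio2-/- and wild-type cartilage (log2) of all tested probes that could be placed on chromosome 12, by the number of protein-coding genes from Dio2. The flanking genes (orange, -0.40 to 0.36) lie within the scatter of the rest of the chromosome, whose largest difference was 0.72 in size.

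Whether the genotype difference was present with and without running was asked in a fit with the 4 groups. In NoRun, 6 of the 51 probes (11.8%) had an unadjusted P-value below 0.05, against 10.4% of all tested probes, and the lowest adjusted P-value was 0.304 in limma. They were Galc (-0.71, SE 0.21), Efcab11 (-0.79, SE 0.34, and -0.58, SE 0.26, on 2 probes), Rps6ka5 (-0.56, SE 0.18), Tdp1 (0.56, SE 0.24) and Angel1. Angel1 was not above background in any wild-type NoRun pool (mean 5.46) and was detected in all 3 Dio2-/- NoRun pools (mean 5.86), so no size is given for a difference that involves wild-type NoRun, although the fits counted it. Without Dio2-/- NoRun 16 the Efcab11 values were -0.30 and -0.18 and Angel1 had no such P-value, and Tdp1 was 0.35 without wild-type NoRun 14. Galc and Rps6ka5 kept an unadjusted P-value below 0.05 without any 1 pool.

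In Run, 3 probes (5.88%) had an unadjusted P-value below 0.05, against 8.17% of all tested probes. Adck1 differed by 0.40 (SE 0.10, adjusted P-value 0.342 in limma), the dimmer Irf2bpl probe by -0.44 (SE 0.13) and Flrt2 by -0.55 (SE 0.21), and each kept its unadjusted call without any 1 pool. In NoRun the same probes differed by 0.21, 0.09 and 0.36. The difference between Run and NoRun, tested itself, had an unadjusted P-value below 0.05 for 6 probes (11.8%), of Flrt2 (-0.91, SE 0.37), Ttc8 (0.79, SE 0.34), Galc (0.57, SE 0.26), Irf2bpl (-0.53, SE 0.24), Rps6ka5 (0.49, SE 0.22) and Angel1, where 5.13% of all tested probes did. The lowest adjusted P-value among them was 0.929 in limma, and Adck1 was not among the 6. Each of the 6 lost its unadjusted call without some single pool.

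**Figure D4:**
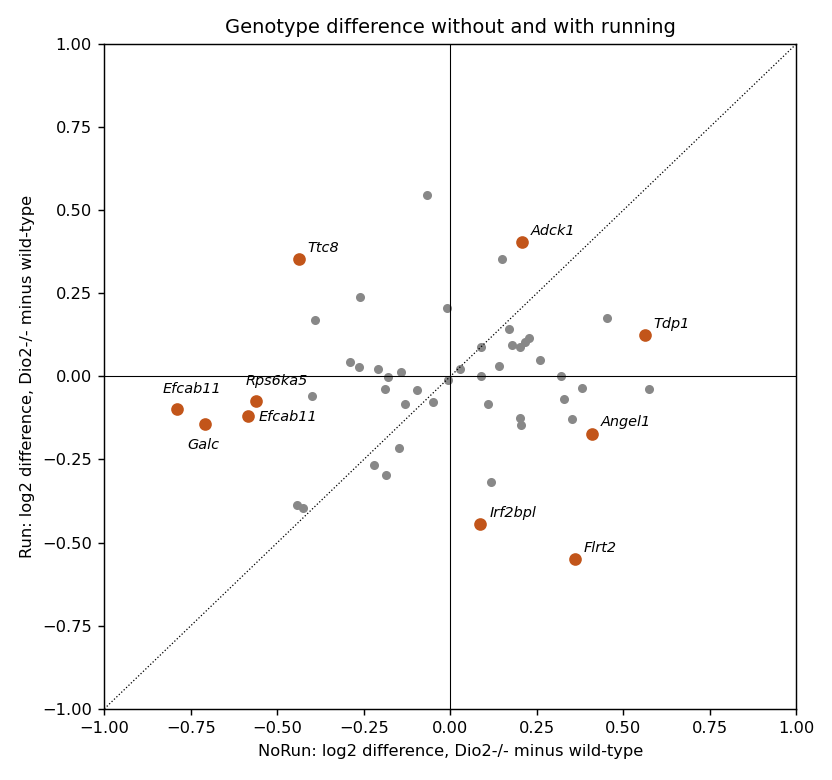
Genotype difference (log2, Dio2-/- minus wild-type) of the 51 tested probes in NoRun (x axis) and in Run (y axis), with the dotted line where both are equal. Orange points had an unadjusted P-value below 0.05 in NoRun, in Run or for the difference between them. Angel1 was not above background in wild-type NoRun, Galc is at -0.71 in NoRun and Adck1 at 0.40 in Run.

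Running itself gave an unadjusted P-value below 0.05 for 2 flanking probes in wild-type (3.92%, against 13.2% of all tested probes) and for 9 in Dio2-/- (17.6%, against 19.2%). The 2 in wild-type were Ptpn21 (-0.60, SE 0.25) and Angel1, which was not above background in NoRun and was detected in all 8 Run pools (mean 5.84), and neither had such a P-value without wild-type NoRun 12. In Dio2-/- the values that passed without any 1 pool were those of Adck1 (0.41, SE 0.13), Flrt2 (-0.87, SE 0.27), the brighter Irf2bpl probe (-0.65, SE 0.19) and 1 Zc3h14 probe (0.48, SE 0.15). The others were Efcab11 (1.04, SE 0.30, and 0.52, SE 0.22), Esrrb (0.83, SE 0.35), Ttc8 (0.74, SE 0.24) and Cep128 (-0.59, SE 0.25), and without Dio2-/- NoRun 16 the Efcab11 values were 0.55 and 0.11. The lowest adjusted P-value was 0.289 in wild-type and 0.0878 in Dio2-/- in limma. The wild-type NoRun and the Dio2-/- NoRun pools were each on a chip with no Run pool of their own genotype, so in neither genotype can an effect of running be told apart from one of chip.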

How the data were processed

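Cartilage RNA of 20 pools was grouped by genotype and running from the sample labels, which also gave chip and position. The deposited intensities are linear probe means without normalization, each with a detection P-value from the authors, and a table of normalized log2 values, used as an alternative only. The submitters' notes name GenomeStudio, with no version or settings. Intensities were background-corrected and quantile-normalized with neqc (offset 16) in limma 3.58.1 and R 4.3.3. Probes detected at 0.05 in 3 or more arrays entered limma fits on genotype and running, or on 4 groups, with Benjamini-Hochberg adjustment over 23148 probes, a threshold of 0.05 and 95% intervals. On simulated data the fit was checked before use. P-values set each difference against the spread between pools, with the variance of each probe drawn towards that of all tested probes. Levels of different probes are not compared. All listed genes are named in gene order, with values by pool where an unadjusted genotype P-value was below 0.05. Of 45281 probes, 34885 carry 1 symbol, 18 several and 10378 none listed here, and gene order comes from the RefSeq table (GRCm38.p6). The rule for the genes uses position only, but the genes and lists were chosen with earlier results of these data known. Alternatives were other normalizations, filters, variance models, chip, position and marker terms, and fewer pools.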

Additional observations from a re-analysis of the deposited data

Results flagged for a closer look

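Among the tested probes of the flanking genes, 102 groups of 4 to 10 pools were checked for a value far from the rest, and 6 were found, where chance gives about 1 in 20 groups. In Dio2-/- Run, pool 24 was lowest for Galc (6.67, next 7.46) and highest for Gtf2a1 (7.46, next 6.97), and this pool had the highest muscle marker mean. In the same group, pool 25 was highest for Flrt2 (7.71, next 6.83) and pool 35 highest for the Sel1l probe ILMN_3137920 (5.70, next 5.21). In wild-type Run, pool 30 was lowest for Spata7 (5.06, next 5.39), and pool 27 lowest for the Zc3h14 probe ILMN_3014257 (9.01, next 9.22).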

How the results depend on the processing

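No flanking probe passed an adjusted P-value of 0.05 for genotype in limma under any of the alternatives run, including each pool left out. None of the 51 probes separated all pools by genotype under the other normalizations or with pools left out. Alternatives that changed only the model or the filter kept the same values, so they could not change this. The further probes tested with no filter were not checked for it. The 4 probes with an unadjusted P-value below 0.05 became 9 (of 90) with no detection filter, where 10.7% of all probes passed. There were 7 with array position as a term (17.8% of all) and 7 with the muscle and neutrophil means (11.3%). Without Dio2-/- NoRun 16 and Dio2-/- Run 24 together there were 2 (11.4%). With each pool left out there were 2 (without Dio2-/- Run 24) to 7 (without wild-type Run 27), where 11.2% to 17.6% of all probes passed. Adck1 kept its direction throughout (0.21, in the deposited log2 table, to 0.43), with an unadjusted P-value of 0.259 with chip as a fixed term (0.26). With chip fixed, which rests on 1 wild-type Run and 2 Dio2-/- Run pools of 1 chip, Sel1l ILMN_3060512 was 0.29 in place of -0.40 and Tmed8 ILMN_1234054 -1.24 in place of 0.15. With the marker means, Galc (-0.10), Irf2bpl (-0.15) and Sel1l (-0.19) lost their unadjusted call, and Efcab11 ILMN_2921958 0.27 in place of -0.00. Over all alternatives, between 0 and 17 of the 51 probes changed sign, most with chip fixed.

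The 4-group counts were recomputed with settings chosen after seeing the data. With no filter, which tested 90 flanking probes in place of 51, Run went from 3 to 11 (12.2%, against 7.4% of all probes). The difference between Run and NoRun went from 6 to 10 (11.1%, against 5.61%). Running in wild-type went from 2 to 8 (8.89%, against 10.3%) and in Dio2-/- from 9 to 14 (15.6%, against 13.4%). With array weights, whose estimate in the 4-group fit stopped before convergence, NoRun went from 6 to 19 (37.3%, against 29.8% of all probes). Run went to 10 (19.6%, against 14.5%) and the difference to 12 (23.5%, against 20.9%). Running in wild-type went to 4 (7.84%, against 25.6%) and in Dio2-/- to 18 (35.3%, against 38.3%). Running in wild-type gave 1 of 42 probes with detection below 0.01 on at least 3 arrays, against 14.4% of all probes. With detection on all 20 arrays it gave 1 of 31, against 16.2%. Without Dio2-/- NoRun 16 and Dio2-/- Run 24, Run gave 5 (9.8%, against 9.71% of all probes) and running in wild-type 4 (7.84%, against 20.1%). With each pool left out, NoRun gave 2 (without wild-type NoRun 14) to 8, where 5.99% to 16.1% of all probes passed. Run gave 3 to 6 (6 without Dio2-/- Run 35), where 5.62% to 11.9% passed. Their difference gave 3 (without wild-type NoRun 12) to 11 (without Dio2-/- Run 24), where 3.61% to 8.33% passed. Running in wild-type gave 0 (without wild-type NoRun 12) to 3, where 8.64% to 15.9% passed. Running in Dio2-/- gave 7 to 15 (without Dio2-/- Run 24), where 10.1% to 28.7% passed. No paired analysis was possible because each label number belongs to 1 pool only. The causes were not tested. The number of pools and, for probes detected on few arrays, the signal over background limit all of these values.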
